A study of Homo sapiens with 12 samples.

Results

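The response to KLF4 virus was compared between cells targeted by CRISPR at p21 and cells targeted at miR-150. The cells were THP-1, a human monocytic leukaemia line, and all carried a CRISPR construct. Lines p21-2 and p21-3 were targeted at p21 and lines 150-3 and 150-4 at miR-150. Each line was infected with lentivirus, either carrying KLF4 or empty (ECV, the control virus). Illumina bead arrays measured its RNA on day 5 of infection, when the cells were 17 days past CRISPR selection. The KLF4 effect of a line was its log2 level with KLF4 virus minus its log2 level with ECV. The difference was the mean effect of the 2 p21 lines minus the mean effect of the 2 miR-150 lines. It used 8 of the 12 arrays and 4 of the 6 lines of the series, with 2 arrays in each of 4 groups, and no array of non-targeting cells. A positive difference means a more positive effect in p21 lines. The labels do not say whether a line is 1 clone or a pool, or whether paired lines were grown separately. The p-values therefore reflect only how far these lines spread, for the gene itself and pooled over all genes. That spread may be technical.

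KLF4 is a zinc finger transcription factor that drives monocyte differentiation when it is introduced into myeloid progenitors. The protein p21, encoded by CDKN1A, inhibits cyclin-dependent kinases and holds cells in G1. The microRNA miR-150 is abundant in mature blood cells and represses MYB, a transcription factor of immature progenitors. The comparison asks whether the response to KLF4 depends on which of these 2 genes was targeted.

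After a filter that kept probes above the background level of 7.26 on at least 2 arrays, 11494 genes were tested. The monocytic markers LYZ, SPI1, CD4 and ITGB2 were above background on all 8 arrays. MPO was above it on 3 arrays and PTPRC on 6. The T cell markers CD3D, CD3E and CD8A were above background on 0 arrays, as were the epithelial markers EPCAM, KRT19, CDH1 and PAX2, while PAX8 of the same class was above it on 2. Of the B cell markers, PAX5 was above background on 0 arrays, MS4A1 on 1 and CD79A on 7, where its highest level was 7.48. Of the erythroid markers, HBB was above it on 0 arrays and ALAS2 on 2. Array medians were 7.17 on all 8 arrays, which the normalization of the deposited values fixed. Values are dye brightness on a normalized log2 scale, so levels are compared between arrays for 1 probe and never between genes. In bulk RNA, fewer cells of a kind and less RNA per cell cannot be told apart.

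The targeted and delivered genes came first. CDKN1A had log2 levels with KLF4 virus of 11.08 in p21-2 and 11.37 in p21-3, against 11.73 in 150-3 and 12.11 in 150-4. With ECV its levels were 9.11 and 8.88 in the p21 lines, against 9.24 and 9.37 in the miR-150 lines. Both p21 lines were thus below both miR-150 lines with either virus. CDKN1A rose with KLF4 virus in p21 lines by 2.23 ± 0.373 (SD, n = 2; limma adjusted p = 1.1e-13) and in miR-150 lines by 2.61 ± 0.181 (SD, n = 2; limma adjusted p = 5.6e-15). The difference of these effects was -0.38 (SE 0.154, limma unadjusted p = 0.0204, adjusted p = 0.9997), with a 95% interval of -0.70 to -0.06. It did not pass the test over all genes, and the line effects overlapped, since p21-3 had 2.49 and 150-3 had 2.49. A frameshift need not remove a transcript, so the CDKN1A level is no check of the edit. MIR150 itself has no probe.

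MYB, a well known target of miR-150, fell in both targets. Its effects were -0.49 in p21-2 and -0.27 in p21-3, against -0.39 in 150-3 and -0.68 in 150-4. The lines of the targets overlapped, and the difference was 0.15 (SE 0.139, limma adjusted p = 0.9997; 95% interval -0.14 to 0.44). With 2 lines per target, the values do not separate the differences within that interval from each other. The brighter KLF4 probe was dim, with effects of 0.25 and 0.01 in the p21 lines and -0.29 and -0.41 in the miR-150 lines. The difference was 0.48 (SE 0.134, limma adjusted p = 0.725), while the second kept KLF4 probe gave -0.01. Neither the probe positions nor the KLF4 sequence in the virus were analysed for this comparison, so the probes are no check of the virus labels.

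The responses of the 2 targets were largely alike in direction. KLF4 virus raised 1508 genes in p21 lines (13.1% of those tested) and lowered 1742 (15.2%), against 1455 raised (12.7%) and 1567 lowered (13.6%) in miR-150 lines (limma, adjusted p under 0.05). The p21 total of 3250 was 1974 without p21-2 and 1751 without p21-3, where a lone line stood for its target. Of the rises, 1114 were shared, which is 73.9% of the p21 rises and 76.6% of the miR-150 rises. Of the falls, 1198 were shared, which is 68.8% of the p21 falls and 76.5% of the miR-150 falls. The targets share no array, and 1 gene was called up in one and down in the other. That gene was FABP4. Across genes the mean effects of p21 and miR-150 lines had a Pearson r of 0.914, given as a description, since genes are not independent replicates.

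**Figure D1:**
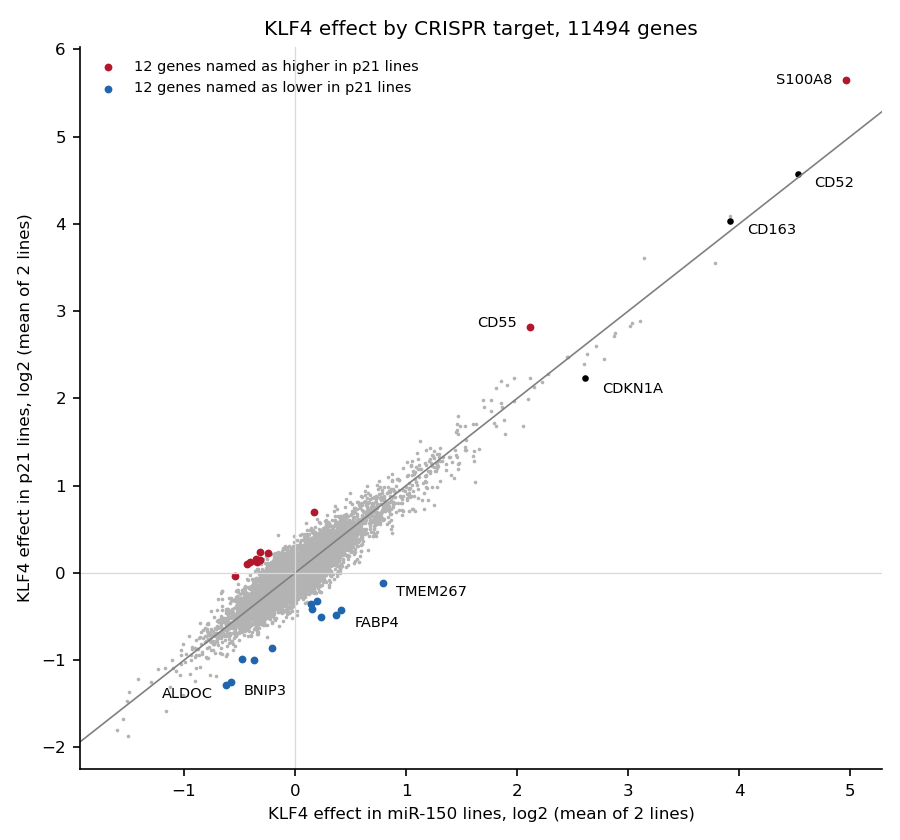
KLF4 effect in p21 lines (vertical axis, log2, mean of 2 lines) against the effect in miR-150 lines (horizontal axis, log2, mean of 2 lines) for 11494 genes, with the line of equal effects. Red and blue points are the 12 genes named as higher and the 12 named as lower in p21 lines, black points are other labelled genes, and 0 genes lie 1 log2 unit or more from the line.

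CD52, a surface glycoprotein with one of the largest mean rises, had log2 levels with KLF4 virus of 13.59 and 13.62 in the p21 lines, against 13.69 and 13.60 in the miR-150 lines. With ECV its levels were 8.89 and 9.18 in the p21 lines, against 9.12 and 9.12 in the miR-150 lines. The targets overlapped with either virus, and the effects differed by 0.04 (95% interval -0.23 to 0.32; limma adjusted p = 0.9997). CD163, the haemoglobin scavenger receptor of macrophages, had effects of 3.59 in p21-2 and 4.48 in p21-3, against 3.43 in 150-3 and 4.41 in 150-4. Its spread within each target exceeded the difference of 0.12, whose 95% interval was -0.37 to 0.60. TREM1, an activating receptor of myeloid cells, differed by -0.23 (95% interval -0.53 to 0.07), and MS4A3, a gene of granulocyte and monocyte progenitors that fell in all 4 lines, by -0.12 (95% interval -0.39 to 0.14). TPSAB1 and TPSB2, tryptases of mast cells, fell in both targets and differed by -0.37 and -0.19, but the probes of these near-identical genes may not separate them. All 146 genes with a mean rise of at least 2-fold were called in both targets, and so were all 20 with a mean fall of that size, which their choice by the mean over both targets made likely. The median difference was -0.02 over the 146 genes and -0.04 over the 20, beside -0.01 over all genes tested.

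The difference itself passed the test for 2 genes, or 0.0174% of 11494, both lower in p21 lines, and for 0 genes higher in p21 lines (limma, adjusted p under 0.05). At an unadjusted p under 0.05 there were 225 genes higher (1.96%) and 278 lower (2.42%) in p21 lines, together 503 genes (4.38%). If no gene differed, evenly spread p-values would put 5% of genes under that threshold, and 4.38% is no more than that. The count of 2 became 0 in the fit without the pairing by line, and lay between 5 and 16 when 1 line was left out: 5 without p21-2, 10 without p21-3, 16 without 150-3 and 14 without 150-4. The median size of a difference was 0.0875, and 22 genes reached 0.5. The median SE was 0.132, which gives a 95% interval of 0.274 to either side of a difference. With 2 lines against 2, an exact permutation test of a single gene cannot go below a two-sided p of 0.333, and none is given.

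TMEM267, which encodes a transmembrane protein, had the largest difference of the 11494 genes. Its log2 levels with KLF4 virus were 10.78 in p21-2 and 11.07 in p21-3, against 11.47 in 150-3 and 11.27 in 150-4. With ECV they were 10.92 and 11.16 in the p21 lines, against 10.53 and 10.64 in the miR-150 lines. The order of the targets thus turned round between the viruses, with no overlap under either. TMEM267 rose with KLF4 virus in miR-150 lines by 0.79 ± 0.222 (SD, n = 2; limma adjusted p = 9.4e-07), while the effect in p21 lines was -0.12 ± 0.0361 (SD, n = 2; limma adjusted p = 0.418). The difference was -0.91 (SE 0.136, limma adjusted p = 0.00959; 95% interval -1.19 to -0.62). The call was lost in the fit without the pairing (difference -0.91, limma adjusted p = 0.0511) and with normexp background correction (-0.94, limma adjusted p = 0.288). It was kept without each single line, but such a fit takes its spread from the other target's lines and from the prior over all genes. The result rests on 1 of 2 kept probes, since the other, at a mean log2 level of 7.60, gave a difference of 0.07 and the mean of both gave -0.42 (limma adjusted p = 0.999).

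FABP4 encodes the fatty acid carrier of adipocytes and macrophages. Its log2 levels with KLF4 virus were 10.30 in p21-2 and 10.64 in p21-3, against 10.44 in 150-3 and 10.55 in 150-4. With ECV they were 10.74 and 11.06 in the p21 lines, against 10.18 and 9.97 in the miR-150 lines. The targets overlapped with KLF4 virus and were apart with ECV, where both p21 lines were higher. FABP4 fell with KLF4 virus in p21 lines by 0.43 ± 0.0095 (SD, n = 2; limma adjusted p = 0.00143) and rose in miR-150 lines by 0.42 ± 0.224 (SD, n = 2; limma adjusted p = 0.00206). The difference was -0.85 (SE 0.136, limma adjusted p = 0.0137; 95% interval -1.13 to -0.56). The p21 lines differed from the miR-150 lines by -0.02 with KLF4 virus and by 0.83 with ECV. The call was lost without the pairing by line (difference -0.85, limma adjusted p = 0.114), with the mean of each gene's probes (-0.85, limma adjusted p = 0.224) and with normexp (-0.89, limma adjusted p = 0.353).

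**Figure D2:**
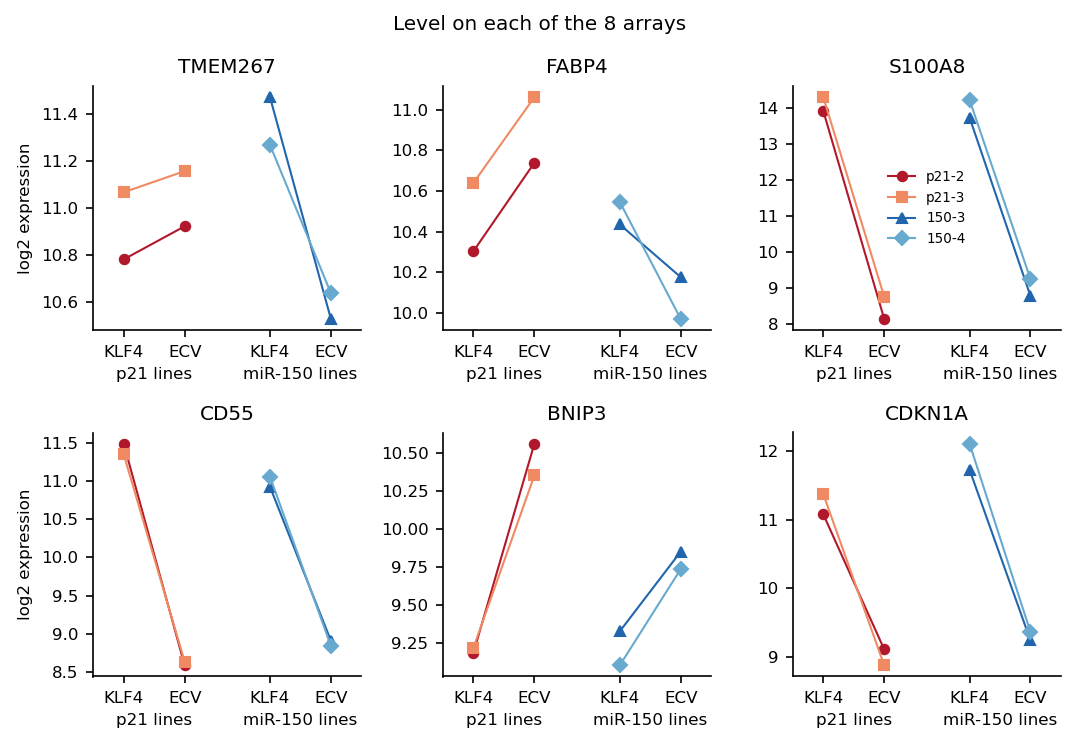
Normalized log2 level (vertical axis) of 6 genes on each of the 8 arrays, with KLF4 virus left of ECV and p21 lines left of miR-150 lines; each connecting line joins the pair of arrays of 1 line. For FABP4, BNIP3 and S100A8 the targets lie closer with KLF4 virus than with ECV.

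The other 22 genes named for the difference did not pass the test, with adjusted p-values from 0.0848 to 0.773 for those higher and up to 0.685 for those lower in p21 lines. Among the higher ones, S100A8, a calcium binder that monocytes and neutrophils secrete, had log2 levels with KLF4 virus of 13.92 and 14.30 in the p21 lines, against 13.73 and 14.22 in the miR-150 lines. With ECV they were 8.15 and 8.76 in the p21 lines, against 8.79 and 9.25 in the miR-150 lines. The targets overlapped with KLF4 virus, and both p21 lines were lower with ECV. The effect was 5.65 ± 0.163 (SD, n = 2) in p21 lines and 4.96 ± 0.0175 (SD, n = 2) in miR-150 lines, a difference of 0.69 (SE 0.133, limma adjusted p = 0.0848). Its dimer partner S100A9 had effects of 3.65 and 3.56 in the p21 lines, against 3.01 and 3.28 in the miR-150 lines, and a difference of 0.46 (limma adjusted p = 0.790). The S100A9 levels of p21 lines were lower by a difference of -0.48 with ECV and -0.02 with KLF4 virus.

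CD55, which protects cells from complement, had levels with KLF4 virus of 11.49 and 11.35 in the p21 lines, against 10.93 and 11.06 in the miR-150 lines. With ECV they were 8.58 and 8.63 in the p21 lines, against 8.91 and 8.84 in the miR-150 lines. Both p21 lines were therefore above both miR-150 lines with KLF4 virus and below them with ECV. Its difference was 0.70 (SE 0.134, limma adjusted p = 0.0848). Below these, 10 further genes had differences between 0.46 and 0.55. They were the glycosylation factor MPDU1, SNN, the splicing factor RBM39, the torsin TOR1B, the RNA-binding protein RO60, the zinc finger protein ZBTB5, ERH, the KLF4 probe above, the antizyme OAZ2 and the kinetochore component NUF2. Among the 12 genes named as higher, 8 had line effects of opposite sign in the targets. MPDU1, for example, had effects of 0.23 and 0.25 in the p21 lines, against -0.36 and -0.28 in the miR-150 lines (difference 0.55, limma adjusted p = 0.295). Its second probe had effects of 0.23 and -0.09 in the p21 lines, against -0.49 and 0.16 in the miR-150 lines, which overlapped, and a difference of 0.24. For RO60, 3 other kept probes gave differences of -0.03, 0.02 and 0.23, against 0.51 for the probe used.

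Among the genes named as lower in p21 lines were 3 of glycolysis and low oxygen, BNIP3, PFKFB4 and ALDOC. BNIP3, a mitochondrial protein of mitophagy and cell death, had log2 levels with KLF4 virus of 9.19 and 9.22 in the p21 lines, against 9.33 and 9.10 in the miR-150 lines. With ECV they were 10.56 and 10.35 in the p21 lines, against 9.85 and 9.74 in the miR-150 lines. The p21 lines lay within the range of the miR-150 lines with KLF4 virus and above it with ECV. BNIP3 fell with KLF4 virus in p21 lines by 1.26 ± 0.171 (SD, n = 2; limma adjusted p = 3.4e-10) and in miR-150 lines by 0.58 ± 0.0768 (SD, n = 2; limma adjusted p = 5.3e-05). The difference was -0.68 (SE 0.134, limma adjusted p = 0.0922; 95% interval -0.95 to -0.40).

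PFKFB4, an enzyme that sets the level of the glycolytic activator fructose 2,6-bisphosphate, had effects of -1.09 and -0.63 in the p21 lines, against -0.32 and -0.10 in the miR-150 lines. Its difference was -0.65 (SE 0.148, limma adjusted p = 0.295). ALDOC, an aldolase of glycolysis, had effects of -1.57 and -1.01 in the p21 lines, against -0.72 and -0.53 in the miR-150 lines, and a difference of -0.67 (SE 0.154, limma adjusted p = 0.295). Neither pair of lines overlapped the other. For PFKFB4 the p21 lines differed from the miR-150 lines by -0.03 with KLF4 virus and 0.62 with ECV, and for ALDOC by 0.05 with KLF4 virus and 0.72 with ECV.

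The remaining 7 genes were SPP1, MZT2A, NIPSNAP2, MT1E, AP5B1, APOC2 and SNORA6. SPP1, the secreted protein osteopontin, had effects of -0.97 in p21-2 and 0.00 in p21-3, against 0.15 in 150-3 and 0.58 in 150-4. Its difference of -0.85 (limma adjusted p = 0.329) was as large as that of FABP4, with a wide spread between the p21 lines, and its second probe gave -0.79. APOC2, a cofactor of lipoprotein lipase, fell in both targets, with effects of -0.94 and -1.03 in the p21 lines and -0.41 and -0.55 in the miR-150 lines (difference -0.51, limma adjusted p = 0.520). MZT2A, a factor of the gamma-tubulin complex, had effects of -0.23 and -0.78 in the p21 lines and 0.28 and 0.18 in the miR-150 lines (difference -0.74, limma adjusted p = 0.127). Of the 12 genes named as lower, the targets lay farther apart with ECV than with KLF4 virus for 8, as they did for 5 of the 12 named as higher. These genes were chosen for their difference, so the counts describe them only.

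**Figure D3:**
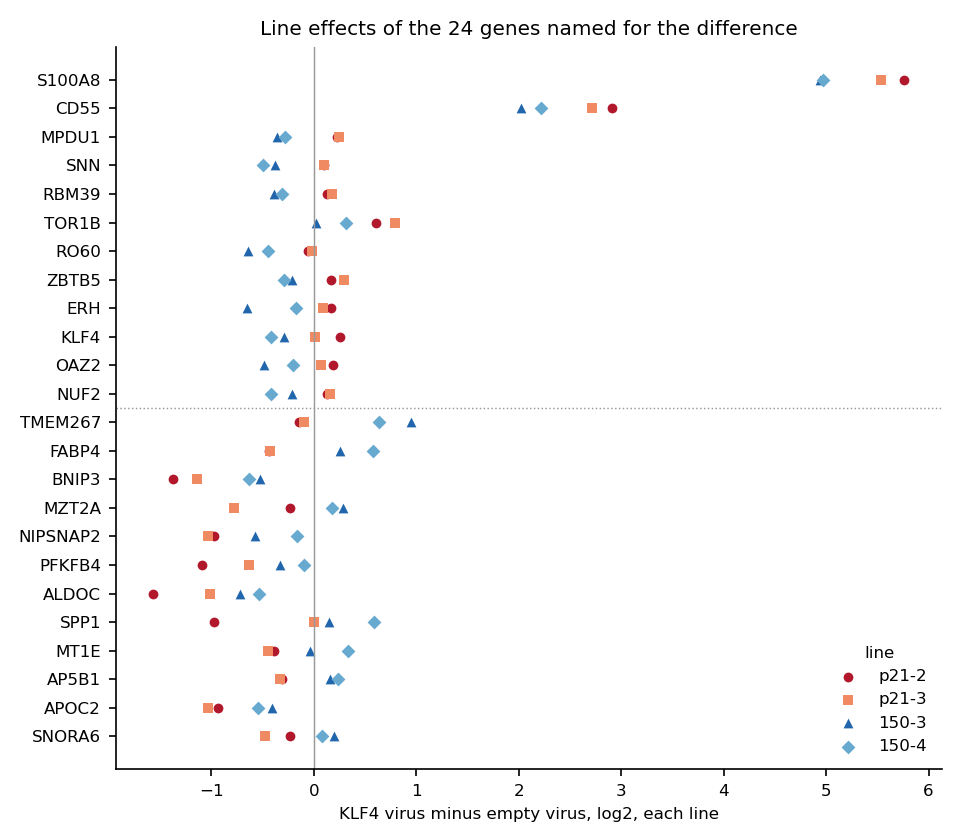
KLF4 effect (horizontal axis, log2, KLF4 virus minus ECV) of each line for the 24 genes named for the difference, with those higher in p21 lines above the dotted line and those lower in p21 lines below it. The line effects of the targets do not overlap for any of them, which the choice of genes required.

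Genes of glycolysis and hypoxia, which cells switch on through HIF transcription factors when oxygen is scarce, leaned lower in p21 lines. Of 28 tested, 6 were lower at an unadjusted p under 0.05 and 0 higher, where 2.42% and 1.96% of all genes were, and 0 passed the adjusted test. The median difference was -0.10 over the list and -0.01 over all genes, and 22 of the 28 differences were negative. For 11 of them both p21 effects lay below both miR-150 effects and for 1 above, against 16.6% and 15.4% of all genes. The 6 were BNIP3, ALDOC and PFKFB4, then NDRG1 (-0.49), the mTOR inhibitor DDIT4 (-0.40) and the collagen hydroxylase subunit P4HA1 (-0.32). NDRG1 fell in p21 lines, with effects of -0.71 and -0.32 (limma adjusted p = 0.00032), and had effects of 0.01 and -0.07 in miR-150 lines (limma adjusted p = 0.864). DDIT4 rose in miR-150 lines, with effects of 0.35 and 0.73 (limma adjusted p = 0.00022), and had effects of 0.09 and 0.18 in p21 lines (limma adjusted p = 0.339). The glucose transporter SLC2A3 rose in both targets, with effects of 1.97 and 2.02 in the p21 lines and 1.96 and 2.23 in the miR-150 lines, and differed by -0.10.

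In this list the targets lay farther apart with ECV than with KLF4 virus. With ECV both p21 lines were above both miR-150 lines for 14 of the 28 genes and below them for 2, where 19.6% and 17.1% of all genes were. With KLF4 virus the counts were 7 above and 3 below, where 17.9% and 16.7% of all genes were. NDRG1 levels with ECV, for example, were 11.38 and 11.28 in the p21 lines, against 10.65 and 10.66 in the miR-150 lines, and with KLF4 virus 10.67 and 10.95 in the p21 lines, against 10.66 and 10.60 in the miR-150 lines. The median distance of p21 from miR-150 lines was 0.09 with ECV and 0.04 with KLF4 virus. The list median was -0.18 without 150-3 and between -0.12 and -0.08 without each of the other lines. The part of culture density, oxygen and medium in these values was not tested.

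**Figure D4:**
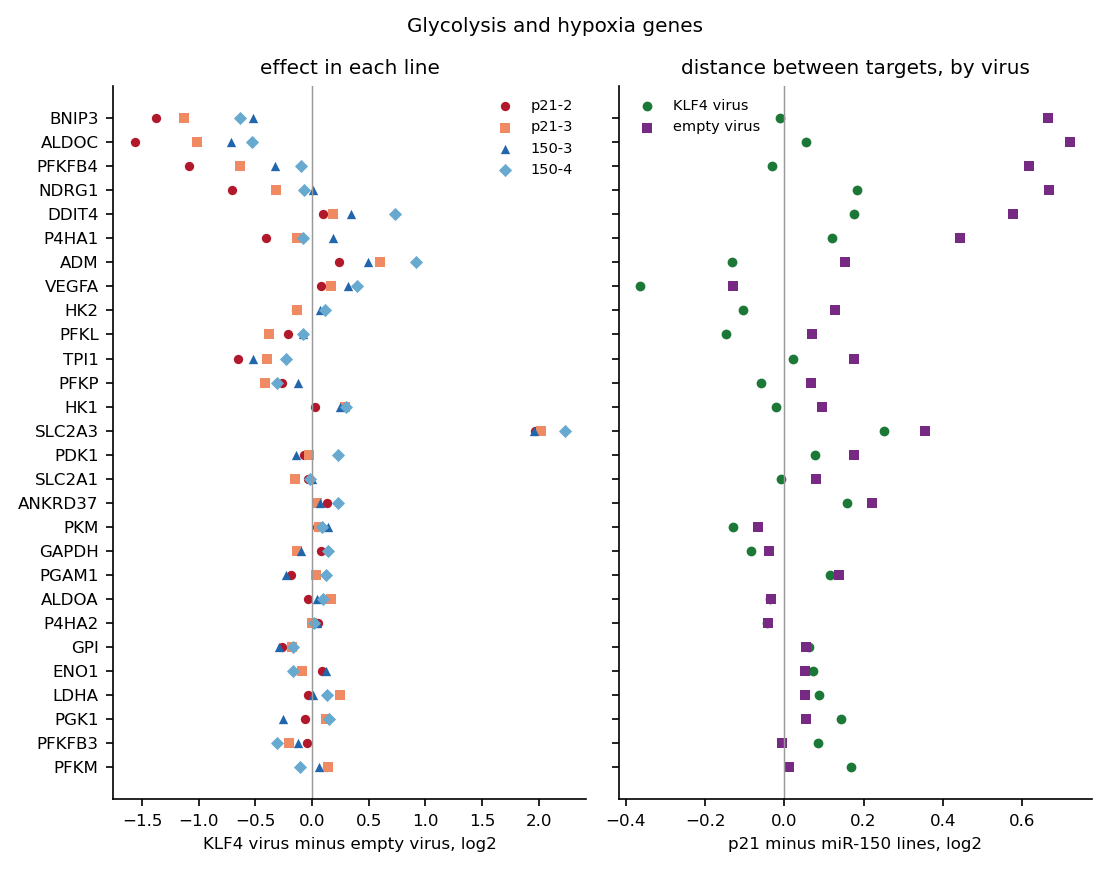
Left, KLF4 effect (log2) of each line for the 28 tested genes of glycolysis and hypoxia. Right, mean level of p21 lines minus mean level of miR-150 lines (log2), with KLF4 virus and with ECV; the upper 6 genes lie near or above 0 with KLF4 virus and above 0.4 with ECV.

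The promoters of the 3 genes with the largest differences in this list are shown because HIF factors bind short cores, ACGTG among them, in such regions. Each runs from 250 bases before to 50 after the annotated start (RefSeq, GRCh38.p14), written 5′ to 3′ on the gene's strand. Capitals mark ACGTG or its reverse complement CACGT. Where these overlap in the palindrome CACGTG, the match on each strand is counted.
BNIP3 promoter, chr10:131981874-131982173, minus strand: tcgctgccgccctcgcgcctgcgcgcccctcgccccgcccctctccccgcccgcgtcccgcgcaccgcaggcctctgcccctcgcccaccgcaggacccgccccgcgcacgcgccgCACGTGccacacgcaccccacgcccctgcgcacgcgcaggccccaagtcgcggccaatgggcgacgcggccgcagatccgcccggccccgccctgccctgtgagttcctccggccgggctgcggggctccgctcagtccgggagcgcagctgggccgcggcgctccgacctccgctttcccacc
PFKFB4 promoter, chr3:48556754-48557053, minus strand: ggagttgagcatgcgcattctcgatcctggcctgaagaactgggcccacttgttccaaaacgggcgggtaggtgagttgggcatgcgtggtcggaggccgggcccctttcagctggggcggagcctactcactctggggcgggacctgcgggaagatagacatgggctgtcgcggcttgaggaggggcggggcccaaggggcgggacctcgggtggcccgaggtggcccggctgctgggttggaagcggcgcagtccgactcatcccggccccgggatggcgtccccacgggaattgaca
ALDOC promoter, chr17:28576846-28577145, minus strand: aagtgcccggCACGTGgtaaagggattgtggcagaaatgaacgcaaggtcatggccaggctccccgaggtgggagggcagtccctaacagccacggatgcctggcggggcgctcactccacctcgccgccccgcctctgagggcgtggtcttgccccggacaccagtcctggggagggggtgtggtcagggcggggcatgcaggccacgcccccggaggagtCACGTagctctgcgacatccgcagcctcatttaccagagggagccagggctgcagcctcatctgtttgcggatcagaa
The window of BNIP3 held 2 matches, that of ALDOC 3 and that of PFKFB4 0. Over all 35116 such windows, 21.4% held a match, as did 25.4% of the 13308 windows of tested genes. Of 47 windows belonging to 25 of the 28 list genes, 20 did (42.6%). A match is a description of the letters and does not show that a factor binds there. Other forms of the HIF core were not searched, so a window with 0 matches may still hold one.

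Interferon response genes also leaned lower in p21 lines. Of 35 tested, 5 were lower at an unadjusted p under 0.05 and 0 higher, where 2.42% and 1.96% of all genes were, 0 passed the adjusted test, and the median difference was -0.11. The 5 were the double-stranded RNA sensor OAS2 (-0.38), OASL (-0.36), IRF9 (-0.36), a subunit of the interferon-activated complex ISGF3, IFI27 (-0.35) and SAMD9 (-0.32). With KLF4 virus 21 of the 35 rose and 4 fell in p21 lines, and 22 rose and 3 fell in miR-150 lines, where 13.1% and 12.7% of all genes rose and 15.2% and 13.6% fell. The median effect of the list was 0.34 in p21-2 and 0.36 in p21-3, against 0.49 in 150-3 and 0.62 in 150-4. OAS2 had levels with KLF4 virus of 8.16 and 8.24 in the p21 lines, against 8.59 and 8.48 in the miR-150 lines, and with ECV of 7.39 and 7.60 in the p21 lines, against 7.52 and 7.38 in the miR-150 lines. The targets were apart with KLF4 virus and overlapped with ECV. With KLF4 virus 17 of the 35 genes (48.6%) were below both miR-150 lines in both p21 lines and 2 above, where 16.7% and 17.9% of all genes were. With ECV 8 were below (22.9%) and 5 above (14.3%), where 17.1% and 19.6% of all genes were. The median difference was -0.06 without 150-4 and -0.17 without 150-3.

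Genes of G2 and mitosis leaned the other way. Of 45 tested, 38 had positive differences, with a median of 0.08, where 5545 of all 11494 genes had positive ones. At an unadjusted p under 0.05, 2 were higher, NUF2 (0.46) and the kinetochore motor CENPE (0.29), and 0 lower. Of all genes, 1.96% were higher and 2.42% lower. The median effect was 0.15 in p21-2 and 0.06 in p21-3, against 0.11 in 150-3 and -0.09 in 150-4, so the targets' lines overlapped. Without 150-4 the median difference of the list was -0.02, without 150-3 it was 0.18, and without p21-2 it was 0.01. The list's lean was thus small or reversed when p21-2 or 150-4 was left out. Such a fit sets 1 line against 2. It would also carry any step that p21-2 shares with 150-3 and p21-3 with 150-4. These medians therefore do not show which lines the lean rests on. With KLF4 virus both p21 lines were above both miR-150 lines for 14 of the 45 genes and below them for 1, where 17.9% and 16.7% of all genes were. With ECV the counts were 3 above and 9 below, where 19.6% and 17.1% of all genes were. For G1 cyclins, CDKs and the RB family the median difference was 0.05, and 0.01 without 150-4. Of 24 tested, 2 were higher, the cyclin CCND3 (0.35) and the transcription factor E2F2 (0.28), and 0 lower, where 1.96% and 2.42% of all genes were. Of 42 genes of S phase and DNA replication, 19 fell in p21 lines and 21 in miR-150 lines, where 15.2% and 13.6% of all genes fell. The median difference of that list was 0.02, with RFC2 (0.29) higher and GINS1 (-0.45) lower.

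Lists tied to the targeted genes had median differences between -0.06 and 0.03. At an unadjusted p under 0.05, 1.96% of all genes were higher and 2.42% lower. Of 7 cyclin-dependent kinase inhibitors, CDKN1A was the 1 member at an unadjusted p under 0.05, and the median difference was 0.03. Of 25 p53 targets, CDKN1A and TRIAP1 (-0.33) were lower and 0 higher, and the median was 0.00. Of 14 reported miR-150 targets, 1 was lower, the transcription factor FOXP1 (-0.32), and 0 higher, with a median of -0.06. FOXP1 had effects of -0.14 and -0.08 in the p21 lines, against 0.41 in 150-3 and 0.01 in 150-4. Its other kept probes, at mean log2 levels of 7.27 and 7.26, gave differences of -0.08 and -0.16. MYB targets and stem cell genes had 0 of 18 members past that threshold and a median of -0.01.

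Of 19 heat shock genes, 4 were higher in p21 lines at an unadjusted p under 0.05 and 1 lower, where 1.96% and 2.42% of all genes were, with a median difference of 0.05, which was 0.14 without 150-4 and 0.01 without 150-3. The 4 were the HSP90 cochaperone STIP1 (0.47), the chaperones HSPA1A (0.39) and HSPH1 (0.32) and CHORDC1 (0.31), while HSPA6 differed by -0.41. The second kept HSPA6 probe, at a mean log2 level of 7.25, gave 0.03. STIP1 had effects of 0.19 and 0.09 in the p21 lines, against -0.50 and -0.17 in the miR-150 lines. The list of unfolded protein and amino acid stress had 2 of 29 higher, the protein disulfide isomerases PDIA4 (0.32) and TXNDC5 (0.33), 1 lower, DDIT4, and a median of 0.06. Apoptosis and BCL2 family genes had 2 of 23 lower, BNIP3 and its relative BNIP3L (-0.48), and a median of -0.03. For BNIP3L, the line effects were -0.82 and -0.64 in the p21 lines, against -0.11 and -0.39 in the miR-150 lines.

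Of 30 monocyte and macrophage markers, the class that KLF4 is known to drive, 21 rose and 2 fell in p21 lines, and 21 rose and 1 fell in miR-150 lines, beside the same shares of all genes as for the interferon list. At an unadjusted p under 0.05, S100A8 and S100A9 were higher in p21 lines, and the integrin ITGAX (-0.29) and CD4 (-0.28) lower, with a median difference of -0.04. The median effect of the list was 0.66 in p21-2 and 0.93 in p21-3, against 0.66 in 150-3 and 0.93 in 150-4. The lines thus differed more within a target than the targets did, and by a like step in both targets. The labels do not say whether p21-2 was handled with 150-3 and p21-3 with 150-4. The fit does not model such a step and counts it as spread between lines. Leukocyte adhesion genes had 1 of 24 lower, ITGAX, and a median of -0.06. Granulocyte and primary granule genes had 1 of 21 lower, the antimicrobial peptide CAMP (-0.33), and a median of 0.07. The mast cell list had 2 tested members, the tryptases above.

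In the other lists at most 2 members reached an unadjusted p under 0.05. Median differences were -0.07 for cholesterol and fatty acid synthesis (24 genes), -0.06 for histones (15), -0.04 for AP-1 and immediate early genes (21), -0.03 for NRF2 targets and AKR1C enzymes (16), -0.02 for MYC-driven ribosome biogenesis (32) and -0.01 for both NF-kB targets (33) and BTK-type signalling (16). They were 0.00 for respiratory chain subunits (34), lysosome and phagosome genes (31) and MHC class I presentation (16), 0.01 for ribosomal proteins (41), KLF and SP family members (13) and lymphoid markers (11), and 0.03 for MHC class II presentation (7) and erythroid and megakaryocyte markers (8). The members that reached it in these lists included the haem-degrading enzyme HMOX1 (-0.32) and the glutathione synthesis subunit GCLM (0.39), both NRF2 targets, and the zinc finger protein KLF10 (0.33). Second probes gave -0.01 for GCLM and -0.10 for KLF10. Of 4 embryonic kidney and epithelial markers, 1 reached it, PAX8 (-0.33), whose signal was above background on 2 of 8 arrays. The 265 tested genes between the end of the short arm of chromosome 6 and CDKN1A had 6 members higher, 7 lower and a median of 0.01, shares near the 1.96% and 2.42% of all genes.

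**Figure D5:**
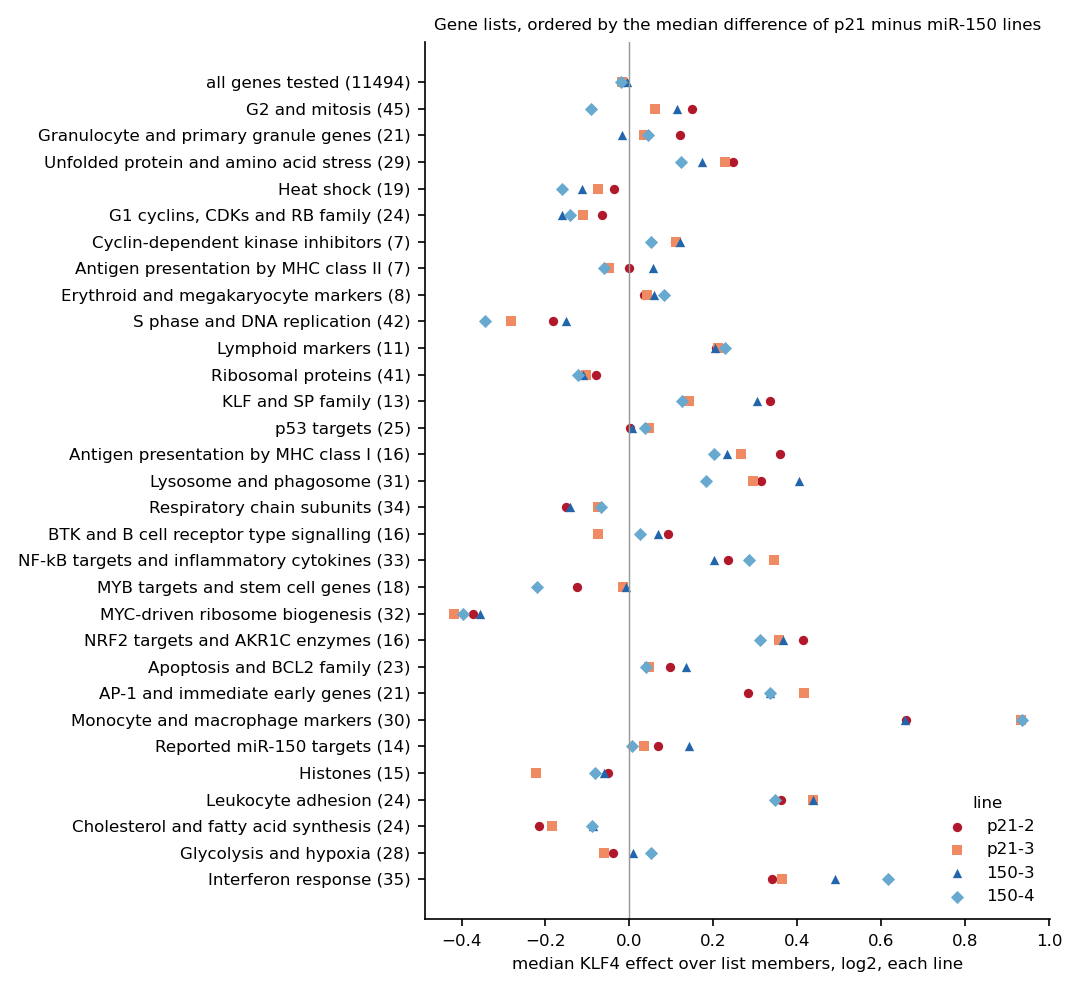
Median KLF4 effect (horizontal axis, log2) over the tested members of each gene list with at least 5 of them, for each line, with the number of tested members in parentheses. Lists run from the highest to the lowest median difference of p21 minus miR-150 lines, with all genes tested at the top and interferon response at the bottom.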

How the data were processed

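The series used Illumina bead arrays with biotin-labelled RNA from THP-1 cells, per the labels. The values are log2 expression values for 47323 probes that the authors deposited, from 6.69 to 14.8, whose distribution is the same on all arrays. How they were normalized is not given in those sources. A raw table of 24 columns whose names match no label was not used.

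A probe was kept above 7.26 (the 95th percentile of a background distribution built from the lower flank of the values, reflected at their mode) on at least 2 of the 8 arrays, which left 20684 probes, 15320 with 1 gene symbol. Symbols came from the platform annotation, in which 30113 probes had 1 symbol, 8 several and 17202 were not listed, and were updated through RefSeq for 30074. Each gene took its brightest kept probe, and 3019 of 11494 genes had more than 1.

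Each line gave 1 paired difference, KLF4 virus minus ECV. The labels name the same line under both viruses, and the deviations of same-line arrays correlated across genes at 0.0713 for p21 and -0.0495 for miR-150. limma 3.58.1 in R 4.3.3 was fitted to the 4 differences (lmFit, eBayes; 2 residual and 21.2 prior degrees of freedom) with Benjamini-Hochberg adjustment over 11494 genes and a threshold of 0.05. The number of arrays limits the precision, at a median SE of 0.132. Intervals are those of the fit, at 95%. The fit was checked on simulated data. Plots used Python 3.11.15 and matplotlib 3.10.9.

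The rule for naming genes took CDKN1A, KLF4, MYB and MIR150 where a probe was listed, 12 genes each way for the difference, those past the threshold first and then the smallest p without overlap of the line effects, 10 each way for the mean effect, and 2 from each list. SLC2A3, NDRG1, P4HA1, OASL, IFI27, SAMD9, HSPA1A, HSPH1, CHORDC1, TXNDC5 and CD4 were added after their values were seen. The comparison and the 32 gene lists were chosen with earlier results of these data known, so no list is independent evidence of its direction. Alternatives were the fit without the pairing, filters, the mean of probes, background correction, cyclic loess, other variance models, another threshold and leaving out each line.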

Additional observations from a re-analysis of the deposited data

Results flagged for a closer look

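The KLF4 effect on TMEM267 differed between p21 and miR-150 lines by -0.91, and that on FABP4 by -0.85, in the test of the difference itself (limma adjusted p = 0.00959 and 0.0137). For FABP4 the effect was called in both targets and in opposite directions, whereas for TMEM267 it was called in miR-150 lines (limma adjusted p = 9.4e-07) and not in p21 lines (limma adjusted p = 0.418). TMEM267 effects were -0.14 and -0.09 in the p21 lines, against 0.95 and 0.63 in the miR-150 lines. FABP4 effects were -0.44 and -0.42 in the p21 lines, against 0.26 and 0.58 in the miR-150 lines. The distance between targets for TMEM267 was -0.45 with KLF4 virus and 0.46 with ECV, whereas for FABP4 it was -0.02 and 0.83.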

How the results depend on the processing

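The 2 genes called for the difference became 0 with no replicate block (the fit without the pairing by line), 0 with the mean of a gene's probes and 0 with normexp background correction, while 4 were called with robust eBayes and 5 at an adjusted p under 0.10. Leaving out 1 line gave 5 to 16, always including TMEM267 and FABP4. The adjusted p for TMEM267 and FABP4 was 0.0511 and 0.114 without the pairing, 0.999 and 0.224 with the mean of probes, and 0.288 and 0.353 with normexp. Leaving out the pairing cannot move a difference, so these stayed at -0.91 and -0.85. FABP4 has 1 kept probe, so the mean of probes could not move its -0.85 either. For TMEM267 the difference was -0.42 with the mean of probes, and normexp gave -0.94 for TMEM267 and -0.89 for FABP4. The cause of these changes was not tested. Both kept their calls with no filter, a strict filter, cyclic loess, trend and robust variance and without each line, where a lone line stands for its target, with the highest adjusted p, 0.0371, for FABP4 without 150-4. The count for the KLF4 effect in p21 lines ran from 1751 to 3551 when 1 line was left out. It was 3237 without the pairing, that for miR-150 lines was 3035 and that for the mean effect 4558, so the pairing moved no other count by more than 1.5 times. The difference for BCL2, which did not pass the test, ran from -0.45 to 0.0302 and that for ATP6V1H from -0.0414 to 0.43 without single lines; both reversed without p21-2. Arrays measure no depth, and dim probes near background understate changes.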
